A study of Homo sapiens with 15 samples.

Results

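The RNAs described here are 9 long noncoding RNAs with a history in prostate cancer research, out of 58381 genes counted in 15 RNA-seq libraries of the VCaP prostate cancer cell line: PCA3, PCAT1, PCGEM1, SCHLAP1, DRAIC, MALAT1, NEAT1, H19 and LINC02726. They were chosen by name and found by matching the Ensembl gene identifiers of the count tables to symbols. All 9 matched, and all 9 are annotated as lncRNA. LINC02726 was chosen because it was higher in the later sublines, so its levels are given as a description with no test, and counts of RNAs that changed refer to the other 8. Of these 8, 7 had enough reads to be tested and H19 had none.

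VCaP is an androgen-sensitive human line that carries a TMPRSS2-ERG fusion. The study grew from it a chain of 5 sublines, each sequenced as 3 libraries. VCaP-T was kept in RPMI 1640 with charcoal-stripped serum and 10 nM testosterone for 7 months, and all other sublines descend from it. VCaP-CT was obtained from VCaP-T after a further 10 months, at 0.1 nM testosterone according to the protocol, although the treatment entry of the same samples reads 10 nM. VCaP-CT-ER came from VCaP-CT grown in 10 µM enzalutamide, an antiandrogen, until growth returned. VCaP-CT-BR came from VCaP-CT grown in bicalutamide, an older antiandrogen, until insensitive, and VCaP-CT-BR-ER came from that line after enzalutamide, at doses not given in the sources used here. The labels of VCaP-CT-BR mention a later exposure to enzalutamide as well. Each subline was derived once, so the 3 libraries of a subline measure the spread within that derivation, and the drug and the history of the subline cannot be told apart. The step from VCaP-CT-BR into enzalutamide is called the later enzalutamide step, and values given for the 5 sublines stand in the order in which they are introduced here.

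Long noncoding RNAs are transcripts that are not translated into protein. Some act in the nucleus as scaffolds: NEAT1 builds the paraspeckle, a body that holds RNA-binding proteins, and MALAT1 sits in nuclear speckles, where splicing factors are stored. Others are known from the prostate. PCA3 is a urine marker of prostate cancer transcribed antisense to PRUNE2, PCGEM1 and DRAIC are androgen-responsive, PCAT1 lies in the 8q24 risk region beside MYC, and SCHLAP1 marks aggressive tumours and was described as antagonising the SWI/SNF chromatin remodelling complex. H19 is an imprinted transcript of the IGF2 locus and the host of a microRNA.

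Library totals lay between 33665716 and 46935279 fragments assigned to genes, and all 15 libraries correlated best with another library of their own subline. Levels are given as CPM, counts scaled to the library size after trimmed-mean correction, with the SD over 3 libraries, and differences as log2 fold changes from edgeR with p-values adjusted over 19621 genes. Prostate luminal genes were present in every subline, with KLK3, which encodes the prostate-specific antigen, at 3558, 33.1, 520, 14.1 and 40 CPM in the 5 sublines. Of 9 marker genes of other cell types, the summed level was between 9.2 and 39.3 CPM per library, highest in VCaP-T and lowest in VCaP-CT-BR, while the T-cell gene CD3E had no count. PTPRC had at most 2 counts. As 60.5% of its 50-base exon windows also occur on alternate or unplaced assembly sequences, its counts bear on leukocyte RNA through its other windows only. These are bulk libraries, in which fewer cells that hold an RNA and less of it per cell cannot be told apart. VCaP-CT replicate 3 stood apart from the other VCaP-CT libraries in MALAT1, NEAT1 and PCA3. The results of these RNAs that rest on it are given with and without it. Values of neighbouring and listed genes are given with it only.

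The sequence around the transcription start is shown for PCGEM1, the RNA that set VCaP-CT-ER apart, for DRAIC, which differed between all sublines, and for LINC02726, which had no count in VCaP-T. The 300-base windows are from RefSeq on GRCh38.p14 and run from 250 bases before to 50 after the RefSeq start, on the plus strand. Capitals mark matches to AGAACA, the half-site of the androgen response element, on either strand.
PCGEM1, chr2:192749595-192749894: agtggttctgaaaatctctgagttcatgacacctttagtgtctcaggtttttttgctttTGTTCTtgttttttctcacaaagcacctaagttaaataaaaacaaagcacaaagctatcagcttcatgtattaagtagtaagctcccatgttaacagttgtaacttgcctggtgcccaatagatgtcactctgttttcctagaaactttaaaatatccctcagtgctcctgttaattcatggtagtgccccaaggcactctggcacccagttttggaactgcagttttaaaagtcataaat
DRAIC, chr15:69561470-69561769: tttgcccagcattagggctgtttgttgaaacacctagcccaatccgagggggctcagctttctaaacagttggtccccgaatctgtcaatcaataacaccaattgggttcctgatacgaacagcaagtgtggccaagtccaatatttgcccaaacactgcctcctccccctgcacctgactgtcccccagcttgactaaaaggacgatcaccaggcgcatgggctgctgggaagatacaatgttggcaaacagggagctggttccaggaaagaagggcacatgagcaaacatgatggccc
LINC02726, chr11:23728737-23729036: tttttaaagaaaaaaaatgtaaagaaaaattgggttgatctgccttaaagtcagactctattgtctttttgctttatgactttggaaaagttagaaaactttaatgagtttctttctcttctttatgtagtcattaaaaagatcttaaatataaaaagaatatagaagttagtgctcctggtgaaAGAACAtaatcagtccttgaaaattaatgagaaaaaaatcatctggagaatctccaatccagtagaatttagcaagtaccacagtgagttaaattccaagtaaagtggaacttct
The PCGEM1 and LINC02726 windows held 1 match each and the DRAIC window none, while 14.8% of 35116 promoter windows of the same length held at least 1. The same windows were searched for TGTTTAC (forkhead factors), CCGGAA (ETS factors) and CACGTG (E-box), present in 3.42%, 17.2% and 7.26% of all promoter windows, and none of these 3 windows held any of them. The bases were 38% G or C in the PCGEM1 window, 52% in that of DRAIC and 29% in that of LINC02726. In the gene models used for counting, DRAIC spans chr15:69463026-69843120 and LINC02726 chr11:23730588-23796970, so the RefSeq start of DRAIC lies inside its counted span and that of LINC02726 before it.

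From VCaP-T to VCaP-CT, 6 of the 8 RNAs passed an adjusted p of 0.05, against 65.3% of all genes tested. The counts of this and the next comparison include PCGEM1, which was tested only because it was high in VCaP-CT-ER. No call is drawn from its p-values. PCAT1, MALAT1 and NEAT1 were higher, and PCGEM1, SCHLAP1 and DRAIC lower, where 33.1% of all genes were higher and 32.2% lower. The difference was at least 2-fold for 4 of them, against 20.8% of all genes. From VCaP-CT to VCaP-CT-ER 6 passed, against 60.9% of all genes, with PCGEM1 and SCHLAP1 higher and PCAT1, DRAIC, MALAT1 and NEAT1 lower (29.6% and 31.2% of all genes), and 5 of the 6 differed at least 2-fold (17.5% of all genes). From VCaP-CT to VCaP-CT-BR 6 passed, against 53.2% of all genes. PCAT1 and SCHLAP1 were higher there and PCA3, DRAIC, MALAT1 and NEAT1 lower (26.1% and 27.0% of all genes), and 2 of the 6 differed at least 2-fold (9.96% of all genes). Without VCaP-CT replicate 3, PCA3 (adjusted p = 0.511) and MALAT1 (0.917) missed the threshold there, and 1 RNA differed at least 2-fold. From VCaP-CT to VCaP-CT-ER, MALAT1 then missed it (0.117), while PCA3 passed as higher (2.86e-07). In the later enzalutamide step 4 passed, against 42.9%, with SCHLAP1 higher (21.2% of all genes) and PCAT1, DRAIC and NEAT1 lower (21.7%). The comparisons with VCaP-CT share its 3 libraries. Since most or many genes passed in each step, the number of these RNAs that passed is no result about them, and the sizes and directions of the single RNAs follow.

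**Figure D1:**
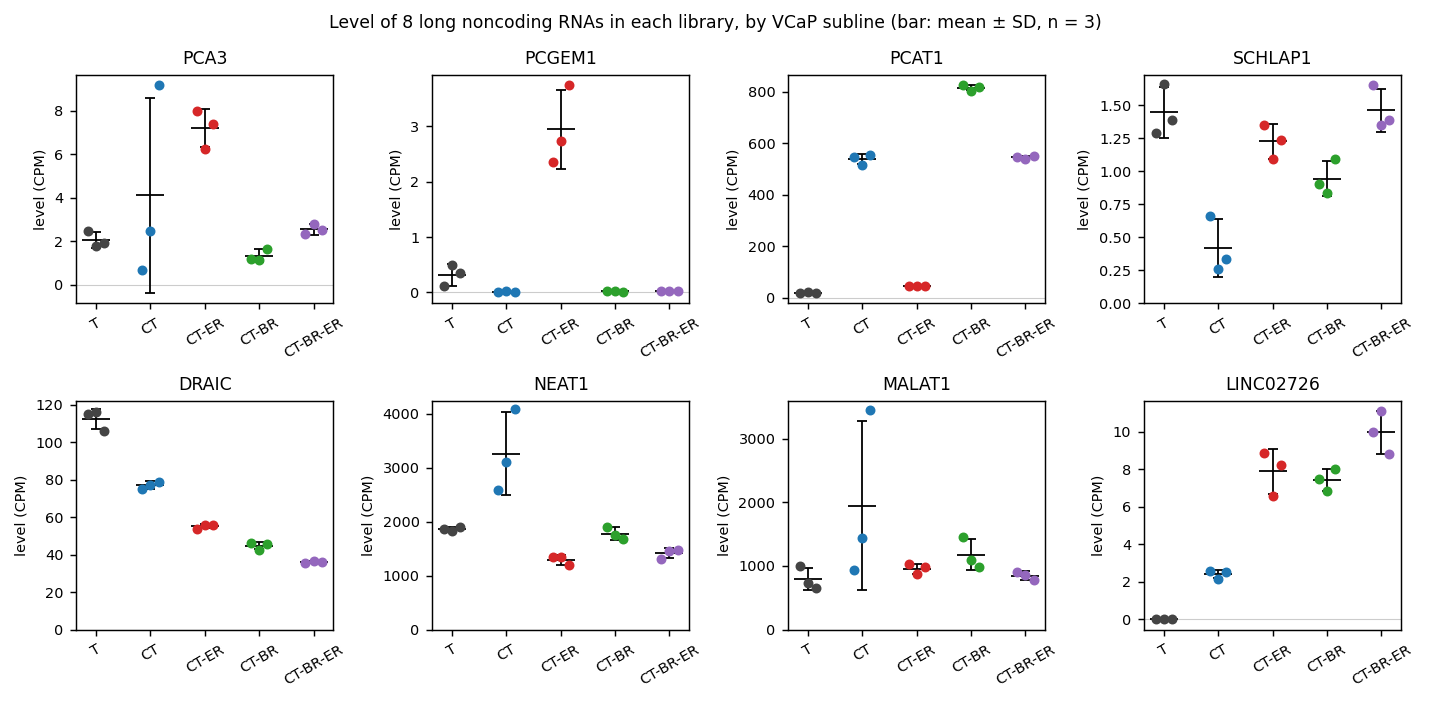
Level of 8 RNAs (CPM, linear axes that differ between panels) in each of the 15 libraries, by subline, with the mean and SD over 3 libraries. PCGEM1 stood at 2.95 CPM in VCaP-CT-ER and at most 0.0285 CPM in any other library outside VCaP-T, PCAT1 was lowest in VCaP-T and VCaP-CT-ER, and DRAIC fell from 113 to 36 CPM.

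PCAT1, encoded on the plus strand of chr8:126556323-127419050 in a gene model whose 16848 exonic bases spread over a span of 862728 bases, had the widest range of the well-counted RNAs. Its 3 VCaP-T libraries had 20.6, 22.2 and 19.8 CPM, those of VCaP-CT 548, 515 and 553 CPM, and those of VCaP-CT-ER 44.5, 45.3 and 45.1 CPM. The VCaP-CT-BR libraries had 824, 804 and 819 CPM and those of VCaP-CT-BR-ER 547, 538 and 549 CPM. VCaP-T and VCaP-CT-ER were thus low and the other 3 sublines high, with no overlap between the low and the high libraries. PCAT1 rose 25.8-fold from VCaP-T to VCaP-CT (log2 fold change 4.69, SE 0.05, adjusted p = 1.04e-23) and fell 12-fold from VCaP-CT to VCaP-CT-ER (log2 fold change -3.58, SE 0.05, adjusted p = 2.81e-22). In the bicalutamide branch it rose 1.51-fold from VCaP-CT to VCaP-CT-BR (adjusted p = 4.41e-10) and fell 1.5-fold from there to VCaP-CT-BR-ER (adjusted p = 7.83e-10). In the order of levels, VCaP-CT-BR-ER and VCaP-CT were neighbours that did not differ beyond their spread (adjusted p = 0.796), and VCaP-CT-ER was 2.15-fold above VCaP-T (adjusted p = 2.24e-14).

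Several genes inside the PCAT1 span and beside it were, like PCAT1, higher in VCaP-CT than in both VCaP-T and VCaP-CT-ER. CASC19, an lncRNA on the opposite strand, had 1.98, 8.99 and 1.87 CPM in these 3 sublines. The lncRNA PRNCR1 had 1.33, 6.47 and 2.07 CPM, with a wide SD of 4.21 CPM over the VCaP-CT libraries. POU5F1B, a retrogene of the pluripotency factor OCT4, had 1.22, 3.53 and 0.771 CPM. The lncRNA CASC11, the nearest tested gene after the span at a distance of 267293 bases, had 0.359, 1.47 and 0.267 CPM. All 4 passed the test in both steps. PRNCR1 had a higher mean in VCaP-CT-ER than in VCaP-T, as PCAT1 had, and the other 3 a lower one. The protein-coding LRATD2, whose exons share 6.9% of the exonic bases of PCAT1, instead fell in both steps (139, 116 and 84.9 CPM). TRIB1, a pseudokinase gene and the nearest tested gene before the span, rose in both (236, 700 and 831 CPM). CASC8, an lncRNA on the opposite strand, had 0.604, 0.573 and 0.497 CPM and passed neither. Of the 10 other genes tested within 1 Mb of the PCAT1 span, 8 were higher and 1 lower in VCaP-CT than in VCaP-T. Among all genes 33.1% were higher and 32.2% lower. From VCaP-CT to VCaP-CT-ER 7 of the 10 were lower and 0 higher, against 31.2% and 29.6% of all genes. The genes did not follow PCAT1 in the bicalutamide branch. From VCaP-CT to VCaP-CT-BR, where PCAT1 rose, 0 were higher and 5 lower, against 26.1% and 27.0% of all genes. In the later enzalutamide step, where PCAT1 fell, 1 was higher and 3 lower (21.2% and 21.7%), and PRNCR1 rose from 3.45 to 8.35 CPM. Whether the DNA copy number of the region differs between sublines was not tested. The counts are not strand-specific, so reads of overlapping genes on opposite strands cannot be told apart.

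**Figure D2:**
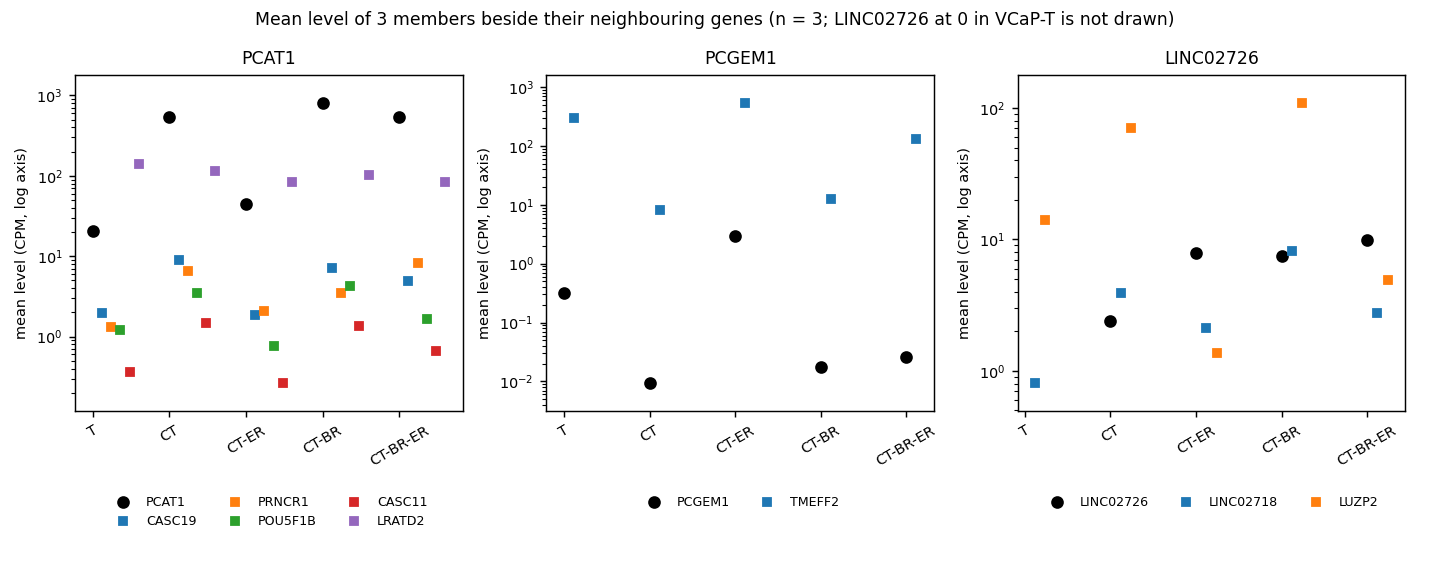
Mean level (CPM, log axes) of PCAT1, PCGEM1 and LINC02726 in each subline (n = 3) beside the genes that overlap or flank them. CASC19, PRNCR1, POU5F1B and CASC11 were all higher in VCaP-CT than in VCaP-T and VCaP-CT-ER, as PCAT1 was, TMEFF2 stood at 547 CPM in VCaP-CT-ER, and LUZP2 went from 70.8 CPM in VCaP-CT to 1.36 CPM in VCaP-CT-ER.

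PCGEM1 (chr2:192749845-192776899, plus strand) was seen in VCaP-T and VCaP-CT-ER and next to absent from the counts elsewhere. The VCaP-T libraries held 4, 18 and 15 fragments, those of VCaP-CT-ER 114, 131 and 151, and the 9 libraries of the other sublines 0 or 1 each. Mean levels were 0.318 ± 0.192 CPM in VCaP-T and 2.95 ± 0.718 CPM in VCaP-CT-ER (SD, n = 3). PCGEM1 passed the filter on low counts only through the sublines in which it was high. Its values are therefore given by fragments, and the edgeR p-values as a description with no call drawn from them. VCaP-CT-ER exceeded VCaP-T by a ratio of 9.06 (95% counting interval 6.46 to 13.1) and VCaP-CT, with 1 fragment in all, by a ratio of 302 (53.9 to 11955). From VCaP-T to VCaP-CT the summed fragments went from 37 to 1, a ratio of 33.3 (5.62 to 1351). Without VCaP-CT replicate 2, which held that 1 fragment, the fitted log2 fold change of this step went from -4.66 to -6.68 (adjusted p = 0.000302) and that from VCaP-CT to VCaP-CT-ER from 7.84 to 9.86 (adjusted p = 1.82e-09). After bicalutamide it did not return: VCaP-CT-BR held 2 fragments in all and VCaP-CT-BR-ER 3, and their ratio of 1.51 had an interval of 0.173 to 18.1, so that no difference was detectable at this depth. The intervals cover counting error only, and fitted fold changes against so few fragments depend on the prior count. The nearest tested gene before PCGEM1, TMEFF2, which encodes a transmembrane proteoglycan of the prostate and brain and lies 554136 bases away, had 299, 8.24 and 547 CPM in VCaP-T, VCaP-CT and VCaP-CT-ER. It also rose in the later enzalutamide step (12.8 to 132 CPM, adjusted p = 5.47e-20), where PCGEM1 had no more than 1 fragment in any library.

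PCA3 (chr9:76691980-76863307, plus strand) lies within PRUNE2, which is transcribed from the opposite strand. The VCaP-T libraries had 2.48, 1.77 and 1.91 CPM, those of VCaP-CT 0.664, 2.48 and 9.19 CPM, and those of VCaP-CT-ER 7.97, 6.24 and 7.4 CPM. The VCaP-CT-BR libraries had 1.17, 1.12 and 1.66 CPM and those of VCaP-CT-BR-ER 2.31, 2.79 and 2.52 CPM. The VCaP-CT libraries alone spanned the whole range of the other sublines. VCaP-CT-ER was 3.52-fold above VCaP-T (log2 fold change 1.81, SE 0.44, adjusted p = 0.000924). VCaP-CT-ER was also 5.44-fold above VCaP-CT-BR (adjusted p = 0.000141) and 2.84-fold above VCaP-CT-BR-ER (adjusted p = 0.00574). The comparisons with VCaP-CT turned on replicate 3. The log2 fold change from VCaP-T to VCaP-CT was 1.02 (adjusted p = 0.0629) with it and -0.37 (adjusted p = 0.302) without it, and that from VCaP-CT to VCaP-CT-BR was -1.65 (adjusted p = 0.0093) with it and -0.27 (adjusted p = 0.511) without it. That from VCaP-CT to VCaP-CT-ER was 0.79 (adjusted p = 0.0923) with it and 2.19 (adjusted p = 2.86e-07) without it. In the order of levels, no neighbouring sublines differed past the threshold.

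PRUNE2, described as a tumour suppressor whose transcript pairs with PCA3, had 1023, 1135 and 1142 CPM in the VCaP-T libraries, and means of 1100, 643, 736, 657 and 531 CPM in the 5 sublines. In the VCaP-CT libraries, where PCA3 varied most, it had 620, 629 and 681 CPM. It fell from VCaP-T to VCaP-CT (log2 fold change -0.77, adjusted p = 1.18e-10) and rose from there to VCaP-CT-ER (0.19, adjusted p = 0.00524). The exons of PRUNE2 overlap 7.48% of the exonic bases of PCA3, and PCA3 lies wholly within its span. Because the counting took no account of strand, unspliced PRUNE2 RNA would be counted as PCA3, and the share of such reads was not tested. A short RNA annotated inside PCA3, ENSG00000274326, had 0.104, 0.197, 0.479, 0.0505 and 0.199 CPM in the 5 sublines.

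SCHLAP1 (chr2:180692104-180916939, plus strand) was lowest in VCaP-CT. Its libraries held 47, 61 and 59 fragments in VCaP-T, 22, 9 and 12 in VCaP-CT, and 65, 52 and 50 in VCaP-CT-ER. Those of VCaP-CT-BR held 35, 32 and 44 and those of VCaP-CT-BR-ER 68, 50 and 53. The VCaP-CT libraries lay below those of every other subline. The mean went from 1.45 ± 0.19 CPM in VCaP-T to 0.418 ± 0.216 CPM in VCaP-CT (log2 fold change -1.80, SE 0.26, adjusted p = 3.09e-06) and back to 1.22 ± 0.131 CPM in VCaP-CT-ER (1.56, SE 0.26, adjusted p = 2.47e-05). It was 2.28-fold higher in VCaP-CT-BR than in VCaP-CT (adjusted p = 0.00109) and a further 1.55-fold higher in VCaP-CT-BR-ER (adjusted p = 0.0209). This last difference missed the threshold when VCaP-CT-BR replicate 1 (adjusted p = 0.0527), VCaP-CT-BR replicate 2 (0.0707) or VCaP-CT-BR-ER replicate 1 (0.0888) was left out. In the order of levels, VCaP-CT-BR and VCaP-CT differed and the higher neighbours did not, with log2 fold changes of 0.02 (95% interval -0.37 to 0.41) between VCaP-CT-BR-ER and VCaP-T. UBE2E3, a ubiquitin-conjugating enzyme gene that starts 50309 bases after SCHLAP1, also had its lowest level in VCaP-CT (36.3, 23.9, 35.1, 28.8 and 50.5 CPM in the 5 sublines). The nearest tested gene before it, the splicing factor gene CWC22, had 24.6, 16.3, 19, 22.6 and 21.1 CPM, and FTH1P20, a ferritin pseudogene inside it, 48.2, 17, 20.1, 12.2 and 15.2 CPM.

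DRAIC, an lncRNA described as a suppressor of invasion that androgen represses, fell at each step. The libraries had 115, 116 and 106 CPM in VCaP-T, 75, 77.1 and 78.9 CPM in VCaP-CT, 53.8, 55.9 and 55.6 CPM in VCaP-CT-ER, 45.9, 42.4 and 45.7 CPM in VCaP-CT-BR and 35.5, 36.7 and 35.8 CPM in VCaP-CT-BR-ER. No library of a subline overlapped those of another, and all 10 pairs of sublines passed the test. The log2 fold change was -0.55 from VCaP-T to VCaP-CT (SE 0.05, adjusted p = 4.02e-09), -0.48 from VCaP-CT to VCaP-CT-ER (adjusted p = 4.22e-08) and -0.79 from VCaP-CT to VCaP-CT-BR (adjusted p = 7.76e-11). In the later enzalutamide step it was -0.31 (adjusted p = 5.23e-05), and VCaP-CT-BR-ER ended 3.13-fold below VCaP-T. The genes on either side did not share this course: RPLP1, a ribosomal protein gene 6832 bases before DRAIC, had 1790, 2589, 1980, 1894 and 1945 CPM, and TLE3, a corepressor gene 204670 bases after it, 187, 196, 179, 168 and 169 CPM. The antisense lncRNA ENSG00000259457 within DRAIC had 1.65, 0.717, 0.823, 0.591 and 0.397 CPM.

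NEAT1 (chr11:65422774-65445540, plus strand) was highest in VCaP-CT. Its level was 1868, 1826 and 1901 CPM in the VCaP-T libraries, 2577, 3111 and 4090 CPM in those of VCaP-CT and 1344, 1334 and 1187 CPM in those of VCaP-CT-ER. The VCaP-CT-BR libraries had 1901, 1751 and 1668 CPM and those of VCaP-CT-BR-ER 1307, 1457 and 1481 CPM. Every VCaP-CT library stood above all others. NEAT1 rose 1.75-fold from VCaP-T to VCaP-CT (log2 fold change 0.81, SE 0.10, adjusted p = 7.72e-07), and the log2 fold change without VCaP-CT replicate 3 was 0.60 (adjusted p = 3.11e-07). It fell 2.53-fold from VCaP-CT to VCaP-CT-ER (adjusted p = 5.12e-10) and 1.84-fold from VCaP-CT to VCaP-CT-BR (adjusted p = 4.94e-07). The fall of 1.25-fold in the later enzalutamide step (adjusted p = 0.0148) missed the threshold without VCaP-CT-BR replicate 1 (0.0713), without VCaP-CT-BR-ER replicate 1 (0.0837) and with DESeq2 (0.0502). In the order of levels, VCaP-T and VCaP-CT-BR did not differ past the threshold (adjusted p = 0.542), nor did VCaP-CT-BR-ER and VCaP-CT-ER (0.307).

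MALAT1 (chr11:65497688-65506516, plus strand, within 1 Mb of NEAT1) also had its highest mean in VCaP-CT, but its libraries overlapped. They had 993, 738 and 655 CPM in VCaP-T, 938, 1440 and 3451 CPM in VCaP-CT, 1022, 869 and 977 CPM in VCaP-CT-ER, 1455, 1092 and 984 CPM in VCaP-CT-BR and 908, 855 and 775 CPM in VCaP-CT-BR-ER. VCaP-CT replicate 3 was more than 2-fold above every other library. With it, MALAT1 was 2.44-fold higher in VCaP-CT than in VCaP-T (log2 fold change 1.29, SE 0.28, adjusted p = 0.000445), and without it the log2 fold change was 0.57 (adjusted p = 0.00389). The fall from VCaP-CT to VCaP-CT-ER was -1.02 on the log2 scale with it (adjusted p = 0.00352) and -0.30 without it (adjusted p = 0.117), and that from VCaP-CT to VCaP-CT-BR was -0.72 with it (adjusted p = 0.0349) and -0.02 without it (adjusted p = 0.917). The latter also missed the threshold without VCaP-CT-BR replicate 2 (0.0871) or 3 (0.128), with DESeq2 (0.117) and when only the sublines compared were fitted (0.114). In the order of levels, no neighbours among the 4 sublines below VCaP-CT differed from each other past the threshold.

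RN7SL2, an RNA of the signal recognition particle that lacks a poly-A tail, had the same order as MALAT1 among the VCaP-CT libraries. Its level was 2.44, 8.85 and 17.4 CPM in VCaP-CT replicates 1, 2 and 3, and 1.91 to 7.07 CPM in the other 12 libraries. The 5 other RNAs of this kind that were looked up (RN7SK, RN7SL1, RMRP, RPPH1 and SCARNA2) were listed at 0 in every library. Fragments that fit several places or genes were left out of the counts, so these values are not read as levels. Why they were 0 was not tested. PCA3 had the same order as MALAT1 in the 3 VCaP-CT libraries, and so had NEAT1. The share of all other lncRNAs in the counts differed less, at 1.28%, 1.29% and 1.34%, and PCAT1, DRAIC and LINC02726 were close together in them. The part of RNA selection or quality in the MALAT1, NEAT1 and PCA3 values was not tested. Of the 91 other genes tested within 1 Mb of MALAT1, a stretch that holds NEAT1, 71 were lower and 3 higher in VCaP-CT-ER than in VCaP-CT, with a median log2 fold change of -0.67 against -0.019 over all genes. Among all genes 31.2% were lower and 29.6% higher there. In the later enzalutamide step 62 of the 91 were lower and 3 higher, against 21.7% and 21.2% of all genes. The lowering was not limited to the enzalutamide steps. From VCaP-CT to VCaP-CT-BR 50 were lower and 3 higher, with a median of -0.33 (27.0% and 26.1% of all genes). From VCaP-T to VCaP-CT, where MALAT1 and NEAT1 rose, 34 were higher and 25 lower, with a median of 0.09 (33.1% and 32.2% of all genes). FRMD8, the nearest tested gene before NEAT1, had 72.1, 66.7, 34.9, 48.4 and 35.8 CPM in the 5 sublines, and FAUP4, the pseudogene between NEAT1 and MALAT1, 4.05, 6.49, 3.05, 6.4 and 3.02 CPM. The copy number of this stretch was not tested.

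**Figure D3:**
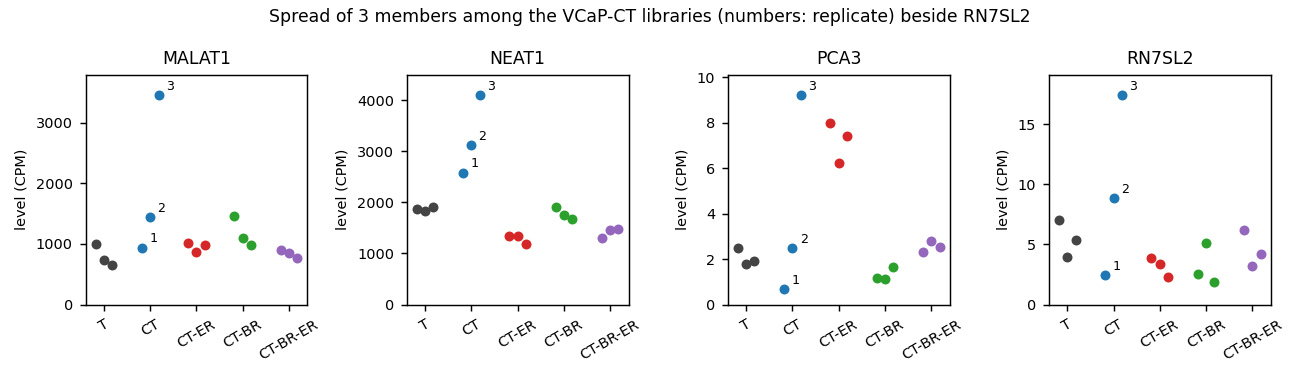
Level (CPM) of MALAT1, NEAT1 and PCA3 in each library, by subline, with the VCaP-CT replicates numbered, beside the level of RN7SL2, an RNA that lacks a poly-A tail. VCaP-CT replicate 3 was the highest library in all 4 panels, with 3451 CPM of MALAT1 and 17.4 CPM of RN7SL2.

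H19 (chr11:1995176-2001470, minus strand) was listed at 0 in all 15 libraries, as was MIR675, the microRNA within it. This 0 cannot be read as a level of H19 RNA. All 2701 windows of 50 bases in the H19 exons also occur, base for base, on an alternate or unplaced sequence of the hg38 assembly, and reads that map to several places were left out of the counts. SMARCB1, the SWI/SNF subunit that SCHLAP1 was described as binding and a gene most cells use, also has all of its 16182 windows elsewhere in the assembly and had at most 1 fragment in any library. Of 697 protein-coding genes with over 90% of their windows on such sequences, 88.5% had at most 10 fragments in every library, against 32% of 11939 protein-coding genes with none. Whether these classes of genes also differ in how strongly prostate cells express them was not tested. Which sequences the authors aligned to is not given in the sources used here. Among the other RNAs the share of such windows was 3.27% for SCHLAP1, 1.54% for PCA3 and below 0.5% for each of the remaining 6. The neighbour MRPL23, a mitochondrial ribosomal protein gene with 94.5% of its windows elsewhere, had subline means of 0.459 to 1.12 CPM. ASCL2, a transcription factor gene on the other side, had 0.775, 0.212, 1.22, 0.0429 and 0.149 CPM in the 5 sublines. IGF2, the imprinted partner of H19, had at most 8 fragments in any library.

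LINC02726 (chr11:23730588-23796970, plus strand), chosen for its rise, had no fragment in the 3 VCaP-T libraries. It had 2.56, 2.16 and 2.51 CPM in VCaP-CT, 8.9, 6.58 and 8.22 CPM in VCaP-CT-ER, 7.46, 6.85 and 8.03 CPM in VCaP-CT-BR and 9.98, 11.1 and 8.83 CPM in VCaP-CT-BR-ER. The VCaP-CT libraries lay between VCaP-T and the 3 antiandrogen-treated sublines, and those of VCaP-CT-BR overlapped those of VCaP-CT-ER. Set against the 0.0782 CPM that 3 counts per VCaP-T library allow, the means of the later sublines, in their order, were at least 31-fold, 101-fold, 95-fold and 127-fold higher. Little is known of what this RNA does. An unnamed lncRNA on the opposite strand, ENSG00000254861, which shares no exonic base with it, had 0, 0.134, 0.707, 0.401 and 0.389 CPM in the 5 sublines. The genes on either side had another order: LINC02718, 527427 bases before it, had 0.812, 3.94, 2.13, 8.19 and 2.75 CPM, and LUZP2, a leucine zipper gene 700000 bases after it, 14, 70.8, 1.36, 110 and 4.88 CPM. LUZP2 passed the test in all 4 steps, falling from VCaP-CT to VCaP-CT-ER (log2 fold change -5.70, adjusted p = 2.91e-21) and in the later enzalutamide step (-4.49, adjusted p = 2.8e-20).

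The response to enzalutamide was compared between the 2 backgrounds with the difference of the log2 fold changes, that of the later enzalutamide step minus that from VCaP-CT to VCaP-CT-ER. Of the 8 RNAs, 4 were past the threshold, PCGEM1 included, against 49.7% of all genes. For PCAT1 the difference was 3.00 (SE 0.06, adjusted p = 2e-18), since it fell 12-fold in the first background and 1.5-fold after bicalutamide. For NEAT1 it was 1.01 (SE 0.15, adjusted p = 7.64e-06), with falls of 2.53-fold and 1.25-fold. For SCHLAP1 it was -0.92 (SE 0.34, adjusted p = 0.0304), with rises of 2.94-fold and 1.55-fold. This call was lost (adjusted p from 0.0517 to 0.115) without VCaP-CT replicate 2 or 3, VCaP-CT-ER replicate 1, VCaP-CT-BR replicate 3, or VCaP-CT-BR-ER replicate 2 or 3. For PCGEM1 the fitted difference was -7.32 (SE 2.33, adjusted p = 0.0127), from which no call is drawn: it is a value that rests on 1 fragment in VCaP-CT and on 2 and 3 in the bicalutamide-treated sublines, and it missed the threshold without VCaP-CT-BR replicate 1 (0.0761) or 2 (0.074). Without VCaP-CT replicate 2, the only library of its subline with a fragment, it was -9.35 (adjusted p = 0.00953). DRAIC fell in both backgrounds, and the difference of 0.17 missed the threshold (adjusted p = 0.055, and 0.0376 with upper quartile scaling). For MALAT1 and PCA3 the difference changed sign without VCaP-CT replicate 3, from 0.55 to -0.17 and from 0.15 to -1.25, and the latter then passed the test (adjusted p = 0.0102).

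**Figure D4:**
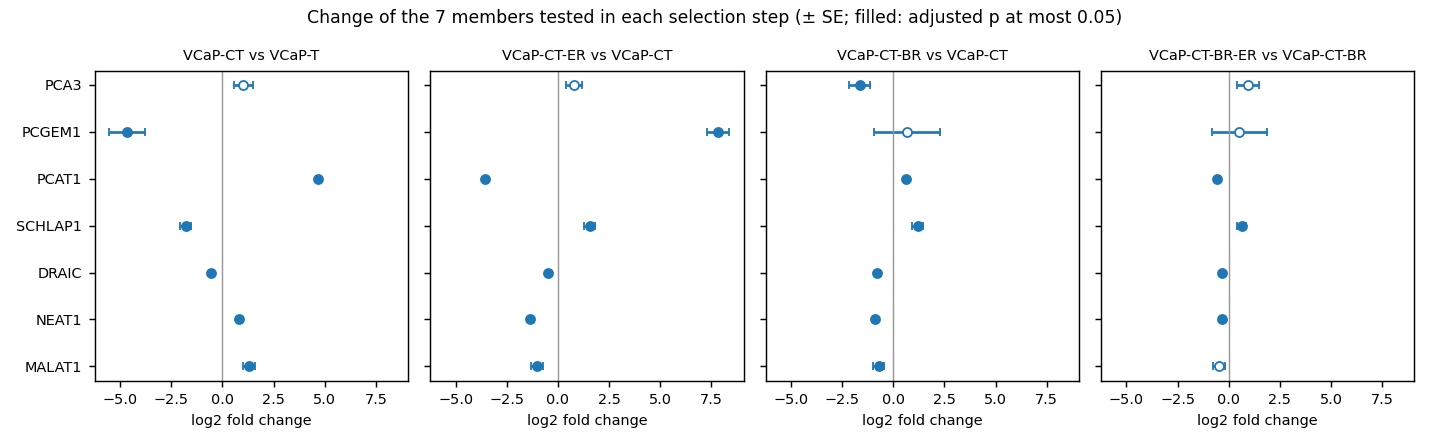
Log2 fold change (edgeR, with SE) of the 7 RNAs tested in the 4 selection steps, filled where the adjusted p was at most 0.05. PCAT1 and PCGEM1 moved in opposite directions in the first 2 panels (4.69 and -4.66, then -3.58 and 7.84), and the fitted values of PCGEM1 rest on 1 fragment in all of VCaP-CT.

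Set against the testosterone-grown line as a whole, 5 of the 8 RNAs passed the test in VCaP-CT-ER (69.0% of all genes). For VCaP-CT-BR the number was 4 (71.2%) and for VCaP-CT-BR-ER also 4 (70.2%). PCAT1 was higher than in VCaP-T in all 3 of these sublines, at 2.15-fold, 39.1-fold and 26.1-fold, and DRAIC lower in all 3. PCGEM1 is included in each of these counts, but no call is drawn from its p-values. By fragments, VCaP-CT-ER exceeded VCaP-T with 396 against 37, a ratio of 9.06 (95% counting interval 6.46 to 13.1). The bicalutamide-treated sublines held 2 and 3 fragments. VCaP-T exceeded them by ratios of 18.8 (4.84 to 161) and 12.4 (3.93 to 62.9). SCHLAP1 was lower in VCaP-CT-BR alone (log2 fold change -0.61, adjusted p = 0.0153), a call lost without VCaP-T replicate 2 (0.069) or VCaP-CT-BR replicate 2 (0.0511). NEAT1 was lower in both enzalutamide-treated sublines, at -0.53 on the log2 scale for VCaP-CT-ER (adjusted p = 0.000112) and -0.40 for VCaP-CT-BR-ER (adjusted p = 0.00186). Between the 2 enzalutamide-resistant endpoints, VCaP-CT-BR-ER and VCaP-CT-ER, 4 of the 8 RNAs were past the threshold, PCGEM1 included (45.9% of all genes). PCAT1 was 12.1-fold higher in VCaP-CT-BR-ER (adjusted p = 6.7e-22), and PCA3 and DRAIC were lower there. PCGEM1 had 3 fragments there against 396 in VCaP-CT-ER, and no call is drawn from its p-value. For VCaP-CT-BR against VCaP-CT-ER the number was 5, PCGEM1 included (55.9% of all genes). For VCaP-CT-BR-ER against VCaP-CT it was 4, without PCGEM1 (52.5%).

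Per kilobase of exon (RPKM), the order of levels within a subline differed between the ends of the chain. In VCaP-T the mean levels were 90.1 RPKM for MALAT1, 81.9 for NEAT1, 6.1 for DRAIC, 1.24 for PCAT1, 1.01 for SCHLAP1, 0.185 for PCGEM1 and 0.145 for PCA3. In VCaP-CT-BR-ER they were 95.8 RPKM for MALAT1, 62.2 for NEAT1, 32.3 for PCAT1, 14.6 for LINC02726, 1.95 for DRAIC, 1.02 for SCHLAP1, 0.179 for PCA3 and 0.0151 for PCGEM1. LINC02726 thus went from 0 to the fourth place and PCAT1 from below DRAIC to above it, while in VCaP-CT-ER PCAT1 and DRAIC were close, at 2.67 and 2.98 RPKM. PCA3 and PCGEM1 were not apart beyond their spread in VCaP-T (SD 0.0265 and 0.112 RPKM), and PCA3 was above PCGEM1 in VCaP-CT-BR-ER. Among the RNAs with any count in VCaP-T, PCA3 and PCGEM1 were the lowest there.

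Partners and described targets of these RNAs were measured next to them. EZH2 and SUZ12, subunits of the histone methyltransferase complex PRC2, had 48.6, 31, 53.2, 45.8 and 39.8 CPM and 115, 101, 97.3, 148 and 132 CPM in the 5 sublines. EZH2 passed the test in all 4 steps, falling from VCaP-T to VCaP-CT (log2 fold change -0.65, adjusted p = 2.75e-09) and rising from there to VCaP-CT-ER (0.78, adjusted p = 1.68e-10). BRCA2, the repair gene that PCAT1 was described as repressing, had 8.53, 6.85, 10.8, 13.5 and 10.5 CPM. It fell from VCaP-T to VCaP-CT (log2 fold change -0.32, adjusted p = 0.00428) and rose from VCaP-CT to VCaP-CT-ER (0.66, adjusted p = 1.38e-06), where PCAT1 moved the other way. It also rose from VCaP-CT to VCaP-CT-BR (0.97, adjusted p = 8.5e-09), where PCAT1 rose too, and fell in the later enzalutamide step (-0.36, adjusted p = 0.00123), where PCAT1 fell too.

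All 12 paraspeckle protein genes were tested beside NEAT1. From VCaP-T to VCaP-CT 8 were higher and 1 lower, with a median log2 fold change of 0.22 against 0.026 over all genes, of which 33.1% were higher and 32.2% lower. NONO, a core paraspeckle protein, went from 733 to 1065 CPM (log2 fold change 0.54, adjusted p = 7.41e-11), its partner SFPQ from 296 to 406 CPM (0.45, adjusted p = 9.32e-09) and RBM14 from 86.2 to 135 CPM (0.64, adjusted p = 2.8e-08). From VCaP-CT to VCaP-CT-ER, where NEAT1 fell, 6 were higher and 3 lower (29.6% and 31.2% of all genes). NONO (log2 fold change -0.50) and RBM14 (-0.39) fell there, while SFPQ rose to 478 CPM (0.24). From VCaP-CT to VCaP-CT-BR 7 were higher and 4 lower (26.1% and 27.0% of all genes), and in the later enzalutamide step 6 were higher (21.2% of all genes).

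Genes that androgen induces gave the background for the androgen-responsive RNAs. Of 20 such genes, 13 were lower and 5 higher in VCaP-CT than in VCaP-T, with a median log2 fold change of -0.39, against 32.2% and 33.1% of all genes. HPGD, which encodes a prostaglandin dehydrogenase, went from 2025 to 21.3 CPM and the metalloreductase gene STEAP4 from 135 to 1.74 CPM. KLK3 had a log2 fold change of -6.75 (adjusted p = 1.3e-25), FKBP5, a cochaperone of steroid receptors, -1.77 (adjusted p = 2.79e-17) and TMPRSS2, the surface protease, -2.25 (adjusted p = 5.66e-19). From VCaP-CT to VCaP-CT-ER 10 were higher and 8 lower (29.6% and 31.2% of all genes). KLK3 rose (3.97, adjusted p = 1.95e-22) and so did FKBP5 (1.03, adjusted p = 2.83e-13), as PCGEM1 did, while TMPRSS2 fell (-0.63, adjusted p = 8.26e-10) and TRPM8, a cold-sensing channel, went from 203 to 0.302 CPM. From VCaP-CT to VCaP-CT-BR 5 were higher and 11 lower (26.1% and 27.0% of all genes), and in the later enzalutamide step 10 were higher and 6 lower (21.2% and 21.7%), with KLK3 at 14.1 and then 40 CPM.

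Other lncRNAs with a record in prostate cancer formed a list of 39, of which 35 matched a counted gene and 31 were tested. From VCaP-T to VCaP-CT 14 were higher and 8 lower, against 33.1% and 32.2% of all genes. LINC00963, described in castration-resistant tumours, fell from 232 to 13.4 CPM (log2 fold change -4.11, adjusted p = 5.62e-22) and ARLNC1, an androgen-regulated lncRNA, from 1.62 to 0.459 CPM (-1.80). PRNCR1 rose (2.29), as did TRPM2-AS (1.36). KCNQ1OT1, the imprinted antisense RNA of KCNQ1, rose from 3.54 to 13.1 CPM (log2 fold change 1.89). The VCaP-CT libraries were widely spread for PRNCR1 (SD 4.21 CPM) and KCNQ1OT1 (SD 5.96 CPM). From VCaP-CT to VCaP-CT-ER 11 were higher and 10 lower (29.6% and 31.2% of all genes). The androgen-induced LINC00844 rose from 0.612 to 7.11 CPM (log2 fold change 3.52, adjusted p = 8.41e-14), ARLNC1 to 2.12 CPM (2.19) and ZEB1-AS1 from 0.876 to 2.26 CPM (1.37), and SOCS2-AS1 fell from 11.5 to 3.18 CPM (-1.85). From VCaP-CT to VCaP-CT-BR 10 were higher and 12 lower (26.1% and 27.0%), with PCAT14 at 423 and 660 CPM (0.64) and PCAT6 at 1.5 and 0.516 CPM (-1.54). In the later enzalutamide step 6 were higher and 5 lower (21.2% and 21.7%), among them LINC00844 (1.26) and DANCR (-0.38). PCAT19 passed the test in each of these steps. It rose from 1.49 CPM in VCaP-T to 2.96 CPM in VCaP-CT and had 0.354, 0.983 and 0.225 CPM in the sublines after it. However, 37.4% of its windows also occur elsewhere in the assembly. Of the RNAs with too few reads to be named by size of change, PCAT4 had 0, 0.154, 1.84, 0.315 and 1.31 CPM in the 5 sublines and PCAT18 1.77, 0.0473, 0, 0 and 0 CPM.

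The genes whose log2 levels followed each RNA most closely over the 15 libraries were sought among 12720 tested genes with enough reads. These correlations are descriptions, since libraries of a subline lie close together and the 5 subline means set most of the value. For PCAT1 they were TMEM62 (Pearson r = 0.993), SYNJ2 (0.991) and TANC1 (0.989), for DRAIC FAM110C (0.990), CTDSP2 (0.986) and TNS2-AS1 (0.986), and for LINC02726 ATP8A1 (0.994), TPI1 (0.994) and FGD5-AS1 (0.992). For PCGEM1 they were the potassium channel gene KCNQ3 (0.981), IGF1R, which encodes a growth factor receptor (0.969), and PBLD (0.966). KCNQ3 had 7.53, 1.56, 40, 1.76 and 1.63 CPM and IGF1R 409, 267, 688, 225 and 264 CPM in the 5 sublines. For SCHLAP1 they were KCTD9 (0.940), HOOK1 (0.935) and RIOX2 (0.931), and for NEAT1 REPS2 (0.947), the unnamed ENSG00000260337 (0.944) and ZFTA (0.936). REPS2, an endocytosis gene known as lowered in late prostate cancer, had 49.7, 110, 24.8, 39.3 and 30.6 CPM. For MALAT1 (ENSG00000226396, RPL12P12 and ZFAS1) and PCA3 (NPC2, ENSG00000272720 and DHRS4) no gene reached an r above 0.802.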

How the data were processed

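RNA-seq fragments of 15 libraries (5 VCaP sublines, 3 replicates each) were counted per gene. The authors deposited raw counts, made with STAR 2.5.4b and featureCounts 1.6.2 according to the submitters' processing notes, on GRCh38 and GENCODE 28 gene models, with no strand option and with fragments that fit several places or genes left out. Library preparation (poly-A or total RNA) and the exact sequences aligned to are not given in the sources used here. Symbols came from GENCODE 44 (57754 of 58381 identifiers).

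Genes were filtered with filterByExpr (minimum count 10, 19621 genes kept), scaled by TMM and tested with the quasi-likelihood F test of edgeR 4.0.16 (R 4.3.3) with a term per subline, over all 15 libraries, with Benjamini-Hochberg adjustment over all genes and a threshold of 0.05. All 10 contrasts between sublines and the difference between the enzalutamide steps were tested. Standard errors come from that fit. In a simulation of VCaP-CT-ER against VCaP-CT on 18996 genes, 195 of 200 changed genes were called, with 8 false calls. Alternatives were other scalings, filters, DESeq2 1.42.0, a replicate block and leaving out each library. Nothing says that the 3 libraries of a subline came from separate cultures, so p-values measure the spread between these libraries. Depth limits the RNAs with few fragments, above all PCGEM1 and SCHLAP1. The intervals of the PCGEM1 ratios cover counting error only, while that given for SCHLAP1 comes from the standard error of the edgeR fit.

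The 9 RNAs and the gene lists were chosen with earlier results of these data known. Named besides them were, in each selection step, up to 3 other prostate cancer lncRNAs that rose and 3 that fell most among those called whose mean log2 CPM was 0 or above, the partners and targets, the nearest tested and overlapping genes, and the 3 genes most alike in level, and further genes of these and other lists were named for their function after their values were seen. LINC02726, chosen for its rise, was not tested. Some neighbouring and partner genes are not reported here.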

Additional observations from a re-analysis of the deposited data

Results flagged for a closer look

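The change with enzalutamide differed between the line that had passed through bicalutamide and the line that had not, by the edgeR test of the difference itself, for PCAT1, NEAT1 and SCHLAP1, and the fitted value of PCGEM1 was past the threshold as well. The difference of the log2 fold changes (after bicalutamide minus without it) was 3.00 for PCAT1, 1.01 for NEAT1, -0.92 for SCHLAP1 and -7.32 for PCGEM1. Of all genes tested, 49.7% passed this test. The PCGEM1 value rests on 1 to 3 fragments in each of 3 sublines, and the SCHLAP1 value on 9 to 68 fragments per library. The SCHLAP1 call was lost in 6 of the fits that left out a library (adjusted p from 0.0517 to 0.115) and that of PCGEM1 in 2 (0.0761 and 0.074). PCGEM1 was tested only because it was high in VCaP-CT-ER, and no call is drawn from its value.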

How the results depend on the processing

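The counts of RNAs past the threshold were within 1.5 times of those reported under RLE and upper quartile scaling, with DESeq2, with all genes that had a count and with a replicate block. A filter of at least 10 counts in every library removed PCGEM1 and SCHLAP1 by its construction, leaving 2 RNAs past 2-fold from VCaP-T to VCaP-CT, 3 from VCaP-CT to VCaP-CT-ER, 1 from VCaP-CT to VCaP-CT-BR, 2 that passed between VCaP-CT-BR and VCaP-T, and 2 in the difference between enzalutamide steps. With only the sublines compared in the fit, 1 RNA passed 2-fold from VCaP-CT to VCaP-CT-BR. Leaving out 1 library at a time gave 1 to 4 RNAs past 2-fold in that step and 2 to 6 past the threshold in the later enzalutamide step. Over those fits the log2 fold change crossed 0 for MALAT1 between VCaP-CT-BR-ER and VCaP-T (-0.04 to 0.27) and in the difference between enzalutamide steps (-0.17 to 0.86). It did so for PCA3 from VCaP-T to VCaP-CT (-0.37 to 1.5), in VCaP-CT-BR-ER against VCaP-CT (-1.2 to 0.67) and in the difference between steps (-1.25 to 0.62). It also did for PCAT1 in VCaP-CT-BR-ER against VCaP-CT (-0.01 to 0.03), PCGEM1 in the later enzalutamide step (-0.01 to 0.88) and SCHLAP1 between VCaP-CT-BR-ER and VCaP-T (-0.08 to 0.13). SCHLAP1 in that comparison was at -0.00 with RLE scaling and with DESeq2, and PCAT1 in VCaP-CT-BR-ER against VCaP-CT at -0.02 with upper quartile scaling. Apart from PCA3 in the difference between steps, none of these passed the edgeR test in the fit where its sign turned. The cause was not tested.

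Same-numbered libraries did not deviate together in all 3 pairs of any comparison, so the numbers were not taken to pair the samples. The replicate block gave MALAT1 a log2 fold change of -0.69 from VCaP-CT to VCaP-CT-BR (adjusted p = 0.0583) and PCA3 0.94 from VCaP-CT to VCaP-CT-ER (adjusted p = 0.0429), and changed no other call among the 77 log2 fold changes.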
